A study of Mus musculus with 6 samples.

Results

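The genes described here make, carry and load the peptides that class I molecules of the major histocompatibility complex show on the cell surface. They are B2m, Tap1, Tap2, Tapbp, Tapbpl, Erap1, Psmb8, Psmb9, Psmb10 and Nlrc5, 10 of 19936 genes tested. They were chosen by symbol for their role, with earlier results of these data known. They were read in colon epithelium from male mice on the C57BL/6J background, 8 weeks old, with 3 Affymetrix arrays labelled wild type and 3 labelled Sel1L-delta-IEC, here called knockout. In the knockout, exon 6 of Sel1l, which encodes an adaptor of endoplasmic reticulum (ER)-associated degradation, was floxed and removed by Cre under the villin promoter, which is active in intestinal epithelial cells. The labels do not say whether the wild type mice carried floxed alleles or Cre, nor whether each array stands for its own mouse, and the p-values then rest on array-to-array spread, which may be technical.

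Proteasomes cut cytosolic proteins into peptides. Under interferon-gamma, cells exchange the constitutive catalytic subunits for the immunosubunits encoded by Psmb8, Psmb9 and Psmb10, and the transporter made of Tap1 and Tap2 then moves peptides into the ER, where Erap1 trims them and tapasin, the product of Tapbp, holds empty class I molecules for loading. B2m encodes the light chain of every class I molecule, and Nlrc5 encodes a transcriptional activator of class I genes. Colonocytes present peptides in this way at baseline and more strongly during inflammation.

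Sequences are shown for the promoters of B2m, Erap1 and Psmb8, which were lower in the knockout and held matches to interferon-linked motifs, and for the stretch from which Tap1 and Psmb9 are read in opposite directions. They come from RefSeq (GRCm38.p6), whose promoter table held 7 of the 10 genes, and stop before the transcribed bases. Capitals mark matches on either strand to GAAANNGAA (a core of the interferon-stimulated response element, ISRE), TTCNNNGAA (the interferon-gamma-activated site, GAS), GGGNNTTTC (part of the NF-kB site), CCAAT (the CCAAT box) and TGACG (the core of the cyclic AMP response element), and no marked matches overlap.
B2m, chr2:122147437-122147686, plus strand: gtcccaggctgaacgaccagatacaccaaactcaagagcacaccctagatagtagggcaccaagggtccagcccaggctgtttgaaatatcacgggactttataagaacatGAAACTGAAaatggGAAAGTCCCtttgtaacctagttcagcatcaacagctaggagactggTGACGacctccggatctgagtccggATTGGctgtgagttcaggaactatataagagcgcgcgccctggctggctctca
Erap1, chr13:74639603-74639852, plus strand: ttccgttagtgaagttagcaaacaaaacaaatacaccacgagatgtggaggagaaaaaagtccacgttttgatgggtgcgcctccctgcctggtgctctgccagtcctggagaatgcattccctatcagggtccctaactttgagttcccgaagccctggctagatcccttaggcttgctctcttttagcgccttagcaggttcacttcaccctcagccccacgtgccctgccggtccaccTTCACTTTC
Psmb8, chr17:34197945-34198194, plus strand: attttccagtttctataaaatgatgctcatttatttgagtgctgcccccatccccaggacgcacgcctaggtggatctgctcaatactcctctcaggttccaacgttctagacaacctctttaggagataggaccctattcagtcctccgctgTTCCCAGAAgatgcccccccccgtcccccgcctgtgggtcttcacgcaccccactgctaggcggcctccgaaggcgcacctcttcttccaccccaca
Between Psmb9 and Tap1, chr17:34187331-34187555, plus strand: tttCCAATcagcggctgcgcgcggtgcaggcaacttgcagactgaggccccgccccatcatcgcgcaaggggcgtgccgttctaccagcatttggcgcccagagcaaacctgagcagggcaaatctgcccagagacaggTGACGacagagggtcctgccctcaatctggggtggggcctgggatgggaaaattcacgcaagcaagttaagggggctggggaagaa

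The B2m promoter held a match to the ISRE 139 to 131 bases before the start and a match to the NF-kB motif 125 to 117 bases before it, followed by a cyclic AMP core and a CCAAT box. In the 250 bases before the start, 7.13% of 32851 promoters in the table held the ISRE letters and 3.72% the NF-kB letters. The Erap1 promoter held an ISRE match on the opposite strand, 9 to 1 bases before the start. The motifs were chosen with these promoters in view, and the ISRE and NF-kB letters were each shortened by 1 letter at the end after a first search with the longer forms. The longer forms matched fewer promoters, the B2m matches met both forms, and the Erap1 match met the shorter form only. The Psmb8 promoter held a GAS match 97 to 89 bases before the start, as did 7.02% of all promoters. The 225 bases between Psmb9 and Tap1 held a CCAAT box beside the Psmb9 start and a cyclic AMP core nearer to Tap1, motifs found in 33.8% and 17.8% of promoters. Of the 7 promoters searched for the 10 genes, 2 held the ISRE letters, 1 the NF-kB letters and 1 the GAS letters. Tapbp and Psmb10 were also lower in the knockout, and their promoters are not shown. That of Tapbp held CCAAT boxes only, and that of Psmb10 held none of these motifs. A match describes letters only, and the arrays did not measure binding.

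All 10 genes had a lower mean in the knockout than in wild type, and 5 of them fell at an adjusted p under 0.05, namely B2m, Tapbp, Erap1, Psmb8 and Psmb10. Among all genes, 0.712% were called lower and 0.918% higher, 1.63% in either direction. The changes ran from -0.63 to -0.12 on the log2 scale, so levels were 1.09-fold to 1.54-fold higher in wild type. The median change was -0.40, against 0.019 over all genes. In 9 of the 10 genes the highest knockout array was lower than the lowest wild type array, which held for 7.98% of all genes, and Nlrc5 was the exception. Levels are log2 values after robust multi-array averaging (RMA), changes are knockout minus wild type with the standard error (SE) of the limma fit, and adjusted p values are Benjamini-Hochberg values over all genes. In bulk epithelium, fewer cells of a type and less RNA per cell cannot be told apart.

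**Figure D1:**
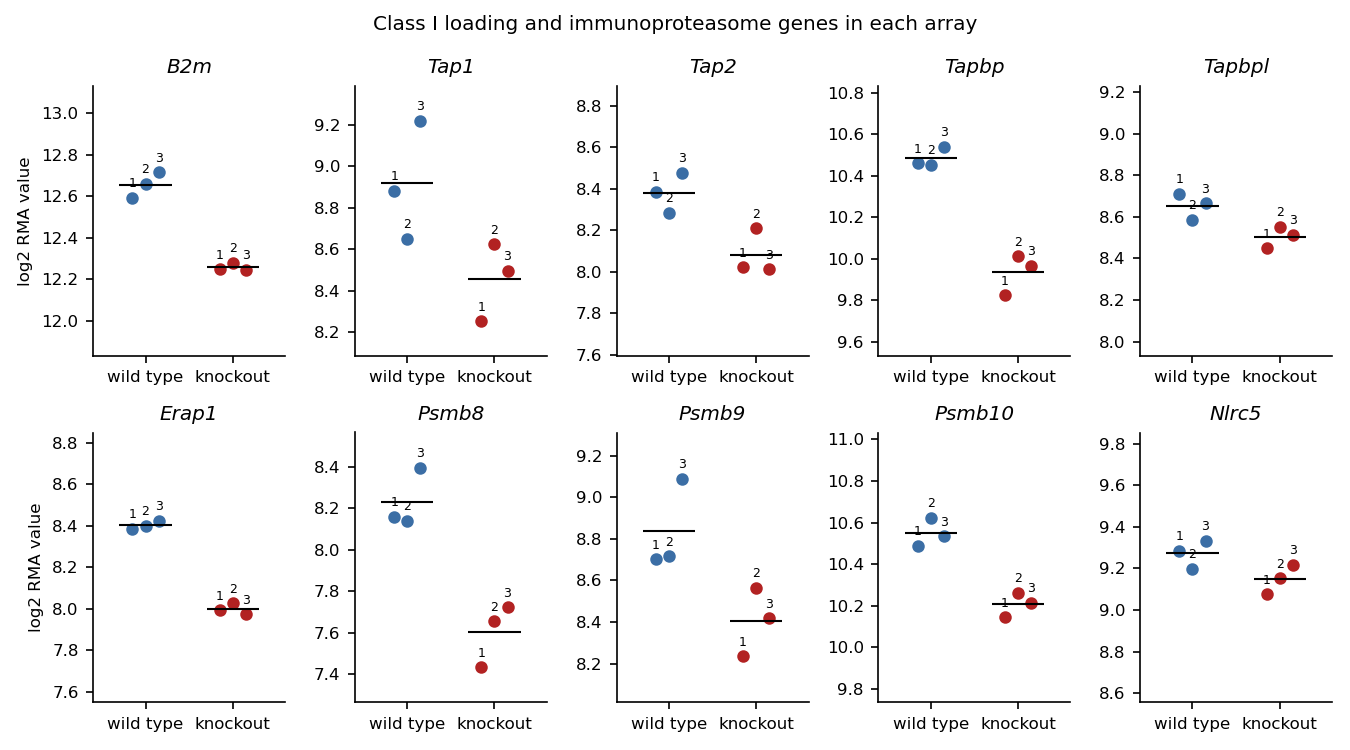
Level of each gene (log2 RMA value) in the 3 wild type and the 3 knockout arrays, with array numbers beside the points and bars for the group means; every panel spans the same range of log2 units. The groups are apart in 9 panels and overlap in that of Nlrc5.

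The immunosubunit genes are taken here in the order of the reaction they serve. Psmb8, which encodes the chymotrypsin-like immunosubunit, read 8.16, 8.14 and 8.39 in wild type and 7.43, 7.66 and 7.72 in the knockout. The groups were apart, with wild type array 3 high and knockout array 1 low. The fall of 0.63 on the log2 scale (SE 0.099, limma's adjusted p = 0.022) was the largest among the 10 genes, 1.54-fold.

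Psmb9, which encodes the immunosubunit at the caspase-like position, read 8.70, 8.72 and 9.09 in wild type and 8.23, 8.57 and 8.42 in the knockout. Array 3 again stood above the other wild type arrays and knockout array 1 below the other knockout arrays. The difference of -0.43 ± 0.12 (SE) was not called (limma's adjusted p = 0.161), and its 95% interval ran from -0.71 to -0.15. Psmb10, the immunosubunit gene for the trypsin-like position, read 10.49, 10.62 and 10.54 in wild type and 10.14, 10.26 and 10.21 in the knockout. It fell by 0.34 on the log2 scale (SE 0.065, limma's adjusted p = 0.044), with less spread within each genotype than Psmb8 or Psmb9.

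None of the 3 constitutive genes that these replace was called in limma, and 0 had an unadjusted p under 0.05. Psmb5, the counterpart of Psmb8, read 10.64, 10.63 and 10.65 in wild type and 10.76, 10.68 and 10.78 in the knockout, a difference of 0.10 ± 0.058 (SE, limma's adjusted p = 0.508). Psmb6, the counterpart of Psmb9, differed by 0.14 ± 0.071 (adjusted p = 0.440 in limma), and Psmb7, that of Psmb10, by -0.028 ± 0.065 (adjusted p = 0.907 in limma). Their 95% intervals reached from -0.030 to 0.24, from -0.019 to 0.30 and from -0.18 to 0.12. Psmb5 and Psmb6 were higher in the knockout without overlap of the groups, while the groups overlapped in Psmb7. The share of all genes higher without overlap was not computed.

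Within each array, the value of the immunosubunit gene minus that of its constitutive counterpart was then compared between genotypes. For Psmb8 and Psmb5 it was -2.41 ± 0.13 in wild type and -3.14 ± 0.16 in the knockout (SD, n = 3 each), apart by -0.73. The genotypes were apart by -0.57 for Psmb9 and Psmb6 and by -0.31 for Psmb10 and Psmb7. Each such value takes in the change of both genes. The groups did not overlap in any of these 3 pairs, nor in Tapbp and Tapbpl, the last of the 4 pairs compared. Each gave an exact two-sided permutation p of 0.1, also 0.1 after adjustment over the 4 pairs, and 0.1 is the smallest p that 3 arrays against 3 allow. At this size the test could not pass 0.05, so the values of the pairs are a description.

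Other core and accessory proteasome genes gave no call. Of 11 further subunits of the proteasome core, 0 were called, 0 had an unadjusted p under 0.05 in limma, and the median change was -0.026, with Psma1 at -0.13 and Psmb4 at 0.12. Of 9 genes for proteasome activators and assembly, 0 were called in limma and 1 had an unadjusted p under 0.05. This was Psme2, a subunit of the interferon-inducible activator, with -0.23 ± 0.061 (SE, limma's adjusted p = 0.129), while its partner Psme1 differed by -0.12 ± 0.070 (adjusted p = 0.527 in limma). The assembly gene Psmg1 differed by -0.13. Psme2 passed the test when an intensity trend was fitted (adjusted p = 0.030) or the dimmest 50% of genes were left out (adjusted p = 0.044).

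Peptide transport came next. Tap1, which encodes one chain of the transporter, read 8.88, 8.65 and 9.22 in wild type and 8.25, 8.63 and 8.50 in the knockout. The groups touched without overlap, since wild type array 2 lay just above knockout array 2. The difference of -0.46 ± 0.15 (SE) was not called (limma's adjusted p = 0.216), and its 95% interval of -0.80 to -0.12 includes changes as large as that of Psmb8. Tap2, the other chain, read 8.38, 8.28 and 8.48 in wild type and 8.02, 8.21 and 8.01 in the knockout, a difference of -0.30 ± 0.080 (SE, limma's adjusted p = 0.137, 95% interval -0.48 to -0.12).

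In the RefSeq annotation of GRCm38.p6, Psmb9, Tap1, Psmb8 and Tap2 are 4 consecutive protein-coding genes on chromosome 17, between the class II genes H2-DMb1 and H2-Ob, and Tapbp lies on the same chromosome. Wild type array 3 was the highest of its group in each of these 5 genes. Knockout array 1 was the lowest of its group in all of them but Tap2, where array 3 was lowest. Of the 4 neighbours, Psmb8 alone was called. Whether Psmb8 changed more than Tap1, Psmb9 or Tap2 was not tested.

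Trimming and loading follow transport. Erap1, which encodes the ER aminopeptidase that trims peptides to class I length, read 8.39, 8.40 and 8.42 in wild type and 7.99, 8.03 and 7.97 in the knockout. The arrays of each genotype lay close together and far from those of the other. Erap1 fell by 0.41 on the log2 scale (SE 0.056, limma's adjusted p = 0.013), and wild type was 1.32-fold higher.

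Tapbp, the tapasin gene, read 10.46, 10.45 and 10.54 in wild type and 9.82, 10.01 and 9.97 in the knockout. It fell by 0.55 on the log2 scale (SE 0.069, limma's adjusted p = 0.010), and wild type was 1.46-fold higher. Tapbpl, which encodes the tapasin-related protein TAPBPR, a peptide editor that works outside the loading complex, read 8.71, 8.59 and 8.67 in wild type and 8.45, 8.55 and 8.51 in the knockout. Its difference of -0.15 ± 0.063 (SE) was not called (limma's adjusted p = 0.360, 95% interval -0.29 to -0.0044). The within-array difference between Tapbp and Tapbpl was 1.83 ± 0.071 in wild type and 1.43 ± 0.047 in the knockout (SD, n = 3 each), with the exact permutation p given above. The tapasin transcript is also known as a target of the ER stress nuclease IRE1α in dendritic cells, and its cleavage was not measured here.

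B2m read 12.59, 12.66 and 12.72 in wild type and 12.25, 12.28 and 12.25 in the knockout. It fell by 0.40 on the log2 scale (SE 0.060, limma's adjusted p = 0.018), and wild type was 1.32-fold higher. The knockout arrays differed among themselves by less than the wild type arrays did (SD 0.019 against 0.062, n = 3 each), and the groups were apart.

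Tapasin works with general chaperones and glycan enzymes of the ER. Of 5 such genes measured, 2 rose, 0 fell and 3 were not called, with a median change of 0.31. In limma, 4 of the 5 had an unadjusted p under 0.05, a share that was not computed over all genes. Calr, which encodes calreticulin, the lectin chaperone of the loading complex, read 11.70, 11.76 and 11.76 in wild type and 12.18, 12.09 and 12.13 in the knockout, a rise of 0.39 ± 0.058 (SE, limma's adjusted p = 0.017). Uggt1, the glucosyltransferase that returns unfolded glycoproteins to calreticulin, rose by 0.37 ± 0.059 (adjusted p = 0.023 in limma). Pdia3, which encodes the disulfide isomerase bound to tapasin, was at 0.31 ± 0.074 without a call (adjusted p = 0.103 in limma). Canx was at 0.20 ± 0.061 and Ganab at -0.0025 ± 0.0575, both without a call (adjusted p = 0.188 and 0.990 in limma). When arrays were left out in turn, Calr passed in 1 of 6 fits, that lacking wild type array 3, and Uggt1 in 0 of 6, with adjusted p up to 0.10.

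**Figure D2:**
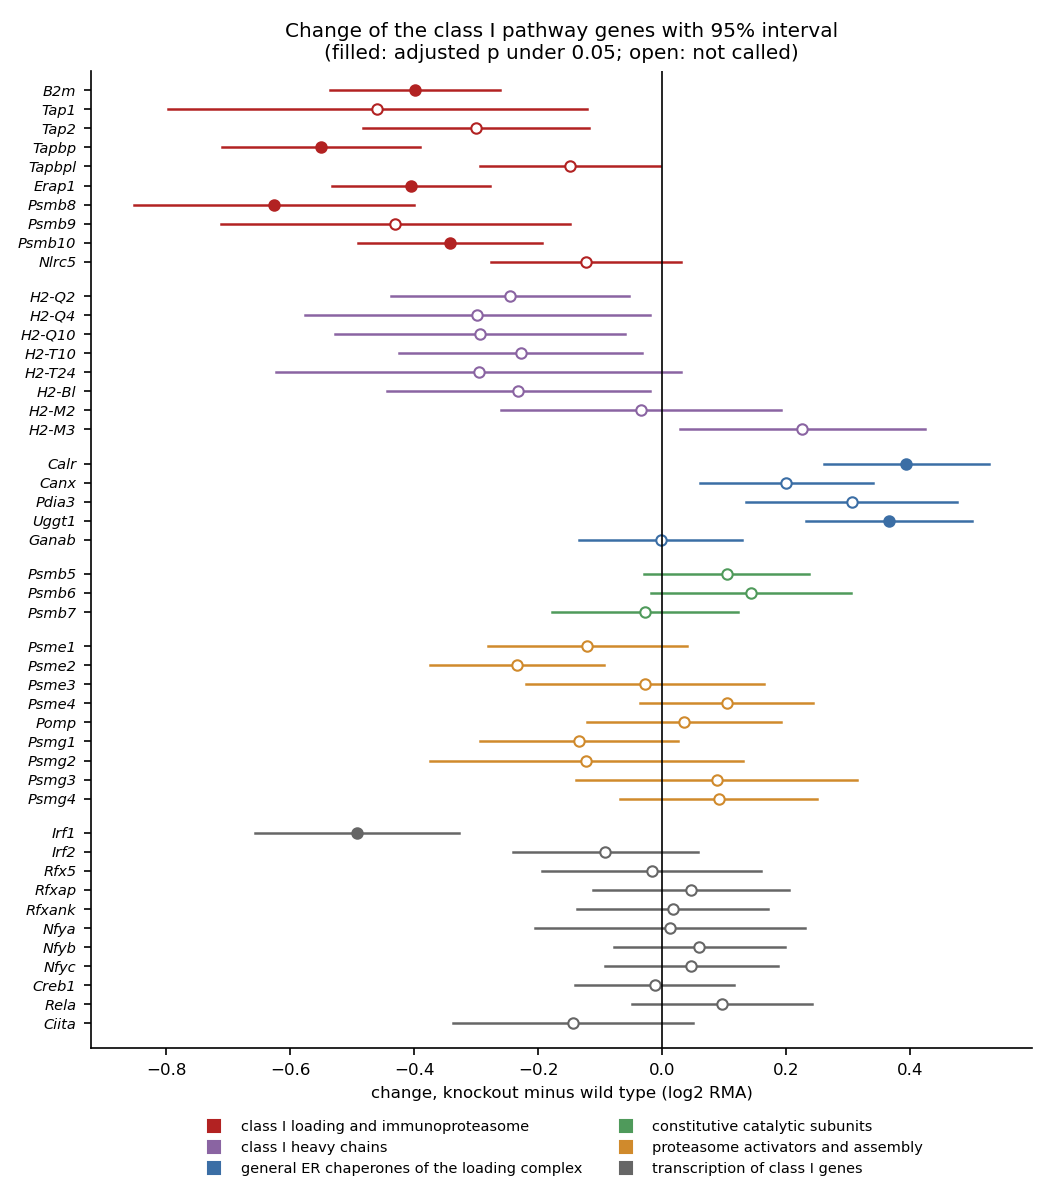
Change of each gene (knockout minus wild type, log2 RMA) with its 95% interval from limma, grouped by role; filled points passed an adjusted p under 0.05. The 10 class I loading and immunoproteasome genes lie left of 0, Calr and Uggt1 lie right of it, and Irf1 is the only filled point among regulators.

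Of the class I heavy chain genes listed, 8 of 17 had a probe set that names a single gene, and H2-K1 and H2-D1 were not analysed here. Of the 8, 0 were called in limma, 6 had an unadjusted p under 0.05, and the median change was -0.24. The share of all genes with such an unadjusted p was not computed. H2-Q2 differed by -0.25 ± 0.084 and H2-Q10 by -0.29 ± 0.10 (SE, limma's adjusted p = 0.245 and 0.253). H2-M3, which presents formylated peptides, was the only positive value at 0.23 ± 0.086 (adjusted p = 0.302 in limma), and is named after its value was seen. These genes are close relatives, so their probe sets may read more than 1 transcript. Of 4 other partners of the B2m chain measured, 0 were called in limma and 0 had an unadjusted p under 0.05, with Cd1d2 at 0.060 and Hfe at -0.043.

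Nlrc5 was represented by the brightest of its 19 probe sets, which read 9.29, 9.20 and 9.33 in wild type and 9.08, 9.15 and 9.22 in the knockout. The groups overlapped, and the difference of -0.12 ± 0.067 (SE) was not called (limma's adjusted p = 0.490). The remaining probe sets gave other sizes. All 19 had a negative change, from -0.69 to -0.028 with a median of -0.41, and in 10 of them the groups did not overlap. Groups apart in this direction held for 7.98% of all genes, each at its brightest probe set. For all probe sets, neither that share nor the share with an unadjusted p under 0.05 was computed. Tested with all 21789 probe sets that name a single gene, 0 of the 19 were called in limma, 13 had an unadjusted p under 0.05, and the lowest adjusted p was 0.067. The mean of the 19 read 7.51, 7.28 and 7.74 in wild type and 6.94, 7.23 and 7.18 in the knockout. This mean had a larger difference than the brightest probe set, -0.40 ± 0.12 (SE), and was not called either (limma's adjusted p = 0.20). The 19 probe sets share the 6 RNA samples and 1 gene, so they are not replicates.

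**Figure D3:**
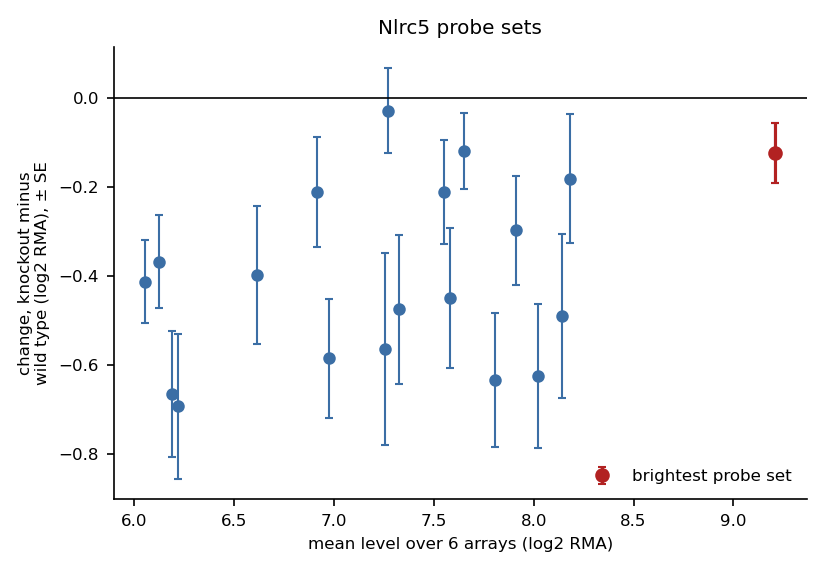
Change of each Nlrc5 probe set (knockout minus wild type, log2 RMA, ± SE) against its mean level over the 6 arrays. All 19 points lie below 0, and the brightest, in red, is among the smallest changes at -0.12.

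Among 11 measured transcription factor genes that act on class I promoters, 1 fell and 0 rose, with a median change of 0.013. Irf1, the interferon-induced factor that binds ISRE sequences, read 10.03, 10.05 and 9.96 in wild type and 9.40, 9.55 and 9.61 in the knockout, and fell by 0.49 on the log2 scale (SE 0.072, limma's adjusted p = 0.017). The mean of its probe sets differed by -0.29 and was not called (limma's adjusted p = 0.10), and of the fits with an array left out, those lacking array 3 of either genotype kept the call. Ciita, the class II relative of Nlrc5, differed by -0.14 ± 0.084 (SE, limma's adjusted p = 0.529). Of 6 genes of the interferon-gamma pathway, 0 were called in limma and 1 had an unadjusted p under 0.05, the receptor gene Ifngr1 at -0.21 ± 0.062 (SE, limma's adjusted p = 0.183), followed by the kinase gene Jak2 at -0.13. Ifng itself lay between 5.42 and 5.65 on every array, under the median level of 6.66 over all genes. Of 6 cytosolic and endosomal peptidase genes, 0 were called in limma and 2 had an unadjusted p under 0.05, Blmh at 0.27 and Thop1 at 0.17. Blmh, like Psme2, passed with an intensity trend (adjusted p = 0.041) or once the dimmest 50% were dropped (adjusted p = 0.032).

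The 10 genes also varied between arrays of a genotype. After each gene was centred on its mean over the 6 arrays, the mean of the 10 was 0.16, 0.12 and 0.29 in wild type and -0.28, -0.12 and -0.17 in the knockout. Wild type array 3 was the highest of its group in 8 of the 10 genes. Knockout array 1 was the lowest of its group in 7 of them, and knockout array 2 the highest in 8. The 5 called class II genes ranked the wild type arrays otherwise, with array 3 lowest in all 5, but shared the high knockout array, since knockout array 2 was highest of its group in all 5. H2-Aa, for example, read 9.31, 9.87 and 8.61 in wild type, with array 3 lowest, and 6.11, 7.23 and 5.94 in the knockout. It fell by 2.84 on the log2 scale (SE 0.38, limma's adjusted p = 0.012), and wild type was 7.15-fold higher. Cd74, the class II chaperone, fell by 2.48, H2-Ab1 fell by 2.20, H2-Eb1 fell by 1.28 and H2-DMa fell by 0.89 (limma's adjusted p = 0.012, 0.017, 0.011 and 0.014). With arrays left out in turn, H2-Aa, Cd74 and H2-DMa each passed in 3 of 6 fits, H2-Ab1 in 2 and H2-Eb1 in 4. The mean over 7 measured class II genes was 8.02, 8.20 and 7.70 in wild type and 6.31, 6.95 and 6.43 in the knockout.

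**Figure D4:**
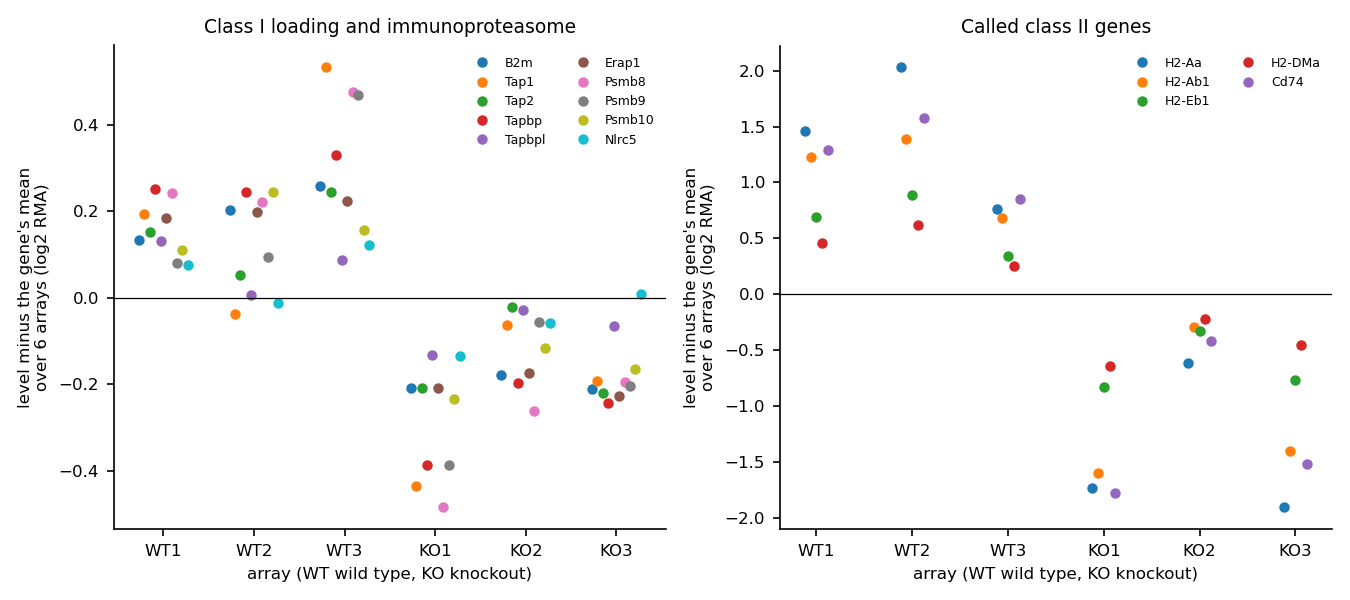
Level of each gene minus its mean over the 6 arrays (log2 RMA), by array, for the 10 class I loading and immunoproteasome genes on the left and the 5 called class II genes on the right, on different axes. Wild type array 3 is the highest of its group in 8 of the 10 class I genes and the lowest in the 5 class II genes, while knockout array 2 is the highest of its group in 8 of the 10 and in all 5.

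Over the 6 arrays, the profiles most like the mean of the 10 genes belonged to Slc2a1, a glucose transporter gene (Pearson r = 0.998), Pkm, a glycolytic enzyme gene (r = 0.996), Slc6a4, the serotonin transporter gene (r = 0.994), Narf (r = 0.990) and Smpdl3b (r = 0.989). These are the highest of all other genes over 6 points in 2 groups, and describe likeness only. Of the 5, Slc6a4 was called and fell by 0.41 on the log2 scale (SE 0.069, limma's adjusted p = 0.026), and it passed in 0 of 6 fits with an array left out (adjusted p from 0.057 to 0.11).

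Most calls were lost in some fits with 2 arrays against 3, in which 69 to 303 of all genes were called against 325 with all arrays. Tapbp stayed called with each of the 6 arrays left out, with adjusted p from 0.027 to 0.048 in limma. Erap1 passed in 3 of the 6 fits and missed when array 1 or 2 of wild type or array 1 of the knockout was removed (adjusted p up to 0.067). Psmb8 passed in 2 fits, those lacking array 3 of either genotype (adjusted p up to 0.079 in the others). B2m passed in 1 fit, that lacking wild type array 3 (adjusted p up to 0.084 in the others). Psmb10 passed in 0 of the 6, with adjusted p from 0.094 to 0.16. Over these fits the change ran from -0.59 to -0.50 for Tapbp, from -0.42 to -0.39 for Erap1, from -0.69 to -0.54 for Psmb8, from -0.43 to -0.37 for B2m and from -0.37 to -0.31 for Psmb10.

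Sel1l read 9.45, 9.67 and 9.54 in wild type and 8.70, 9.06 and 8.66 in the knockout, so the groups follow their labels, although the probe set was not placed on the deleted exon. Epithelial markers were high, with 10 of 10 above the median level of all genes and 0 called in limma, where 3 had an unadjusted p under 0.05. These were Epcam and Cdh1, genes for epithelial adhesion proteins, both at -0.23 ± 0.058, and Slc26a3, a chloride exchanger gene of colonocytes, at -0.36 ± 0.10 (SE, limma's adjusted p = 0.124, 0.122 and 0.159). All 3 were lower in the knockout without overlap, the direction of the 10 genes. The marker Muc2 was too, at -0.040 ± 0.055 (SE, limma's adjusted p = 0.824). Groups apart in this direction held for 7.98% of all genes. Over the 10 markers 6 changes were negative, with a median of -0.055. The summed signal of the 10 ran from 59109 to 64188 in wild type and from 58431 to 61510 in the knockout. A linear sum weighs bright genes most, here Krt8, Muc2 and Car1. Their wild type means were 13.53, 13.44 and 13.37, against 11.39 for Epcam, so the sum can hide falls in dimmer markers. The part of these markers in the changes above was not tested. Immune cells use the immunoproteasome heavily, and their markers were low. Of 6 markers of all leukocytes, 1 lay above that median and 0 were called or had an unadjusted p under 0.05 in limma. Their summed linear signal ran from 470 to 531 in wild type and from 462 to 504 in the knockout. It ran from 503 to 579 and from 477 to 584 for 10 markers of T cells and intraepithelial lymphocytes, from 568 to 600 and from 574 to 606 for 12 of macrophages and dendritic cells, and from 266 to 309 and from 268 to 298 for 7 of B and plasma cells. It was 223 to 262 against 246 to 275 for neutrophils, 270 to 298 against 285 to 309 for endothelium, and 392 to 465 against 403 to 444 for fibroblasts. Above the median level lay 1 T cell marker, 1 of endothelium and 2 of fibroblasts, and 0 of the macrophage, B cell and neutrophil lists. Sums of such dim genes may miss a change in cell number. The groups overlapped in all 7 lists of other cell types, and 0 of their genes were called in limma, with 1 at an unadjusted p under 0.05, Fcgr1 of the macrophage list at 0.24. The part of such cells in the changes above was not tested.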

How the data were processed

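Per the labels' protocols, total RNA of colon epithelium was amplified and hybridised to Affymetrix arrays. The authors deposited log2 values from RMA (per the submitters' processing notes), a method that subtracts background, equalises arrays and combines the probes of each set. For the RMA software and the genome build, the sources used here name none. The values were used as deposited, with array medians from 6.32 to 6.36.

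The platform annotation of the 35556 probe sets gave 1 gene for 21789, several for 1621 and none for 12146. Symbols were updated through RefSeq gene identifiers. Each gene was represented by its brightest probe set over all 6 arrays, 19936 genes in all. The genotype test was fitted in R 4.3.3 by limma 3.58.1 (lmFit, eBayes, two-sided, Benjamini-Hochberg over all genes, called under 0.05), and gene pairs with exact permutation tests in SciPy 1.17.1. The limma fit was also run on simulated data with independent noise and 200 changed genes. It called 91% of changes of 0.5 and 99% of changes of 1, and 6.4% of its calls were false. Smaller changes were not simulated. No batch labels were used here. The members and lists were chosen with earlier results of these data known. Named are the members, the called genes of each pathway list or otherwise the 2 with the smallest p, and the 5 most similar profiles. Pdia3, Canx, Ganab, Psmb7, Psme1, H2-M3, Ciita, Ifng and Fcgr1 fall outside this rule and were picked with their values in view. The same holds for the epithelial markers Epcam, Cdh1, Slc26a3, Muc2, Krt8 and Car1. The number of arrays limits the precision. Alternatives were a replicate block, quantile normalization, median centring, 2 filters on dim genes, an intensity trend, a robust prior, array weights, the mean of probe sets and each array left out. A test of all probe sets was chosen after seeing the data, as were the promoter motifs and their final letters.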

Additional observations from a re-analysis of the deposited data

How the results depend on the processing

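All 160 values of the 10 genes under the alternatives kept their direction, and 20 fell short of the threshold that the reported fit passed. Of the 5 called genes, 5 were called under quantile normalization, median centring, both filters on dim genes, the intensity trend, the robust prior, array weights and the mean of probe sets. With an array left out, 1 to 4 were called. Over all genes, 325 were called, against 598 without the dimmest 50% of genes, 614 with an intensity trend and 69 to 303 with an array left out. The 10 genes' median change then lay between -0.42 and -0.33, the latter without wild type array 3. With the replicate number as a block, 3 of the 10 genes were called (Tapbp, Erap1 and Psmb8) and 217 of all genes, while B2m and Psmb10 had adjusted p values of 0.053 and 0.071, and Calr and Uggt1 of 0.057 and 0.071. Deviations of same-numbered arrays correlated at -0.10, 0.15 and 0.15, and those of differently numbered arrays at -0.26 to 0.12. The values of 0.15 were the highest among all pairs of arrays across genotypes. The labels state no pairing, and the reported fit used none. Cd1d2 ran from -0.0076, without wild type array 2, to 0.12 without wild type array 3, and the cause was not tested. None of the 36 values of the gene pairs changed direction. No depth is defined for arrays, and signal over background was not measured here.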
